A study of Caenorhabditis elegans with 23 samples.

Results

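Small heat shock protein genes outside the hsp-16 group were read across 23 whole-worm arrays of Caenorhabditis elegans. The genes were sip-1, hsp-12.1, hsp-12.2, hsp-12.3, hsp-12.6, hsp-25 and hsp-43, and every probe set annotated with these symbols was taken, whatever its value. This gave 7 of 17118 named genes and 8 of the 22548 probe sets of the array, 2 of them for sip-1 and 1 for each other gene. The probe sets of hsp-25 and hsp-43 and 1 of those of sip-1 (called its shared probe set below) have names that mark them as able to bind several transcripts, so their gene is less certain. Values of sip-1 are from its other probe set unless stated. The worms were wild type (WT, N2) or carried the temperature-sensitive allele glp-1(e2141ts). glp-1 codes for the Notch receptor that keeps germline stem cells dividing, and the series' text says that the mutants form few meiotic germ cells. They had eaten bacteria carrying an empty vector (EV) or RNAi against ash-2, which codes for part of the enzyme complex that puts methyl groups on histone H3 lysine 4. RNA was taken from a stage labelled L3 and on day 8. All worms were grown at 20 degrees, and the labels do not say whether the glp-1 worms were ever moved to a restrictive temperature. Each of the 8 groups (L3 or day 8, WT or glp-1, EV or ash-2 RNAi) has 3 arrays, except day 8 WT EV, which has 2 because the submitters left out number 3 for quality. Nothing says that arrays of a group came from separate cultures, so the p-values measure the spread between these arrays.

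Small heat shock proteins share an alpha-crystallin domain and hold unfolding proteins in solution without using ATP. The inducible hsp-16 genes are the best known of the family in C. elegans. Others are made without heat shock in particular tissues or at particular stages. SIP-1 is a chaperone of oocytes and embryos that works best in acid. The HSP-12 proteins have very short tails around the domain, and some of them lack ordinary chaperone activity in the test tube. hsp-12.6 is known as a target of DAF-16, the FOXO factor of the insulin pathway. HSP-25 lies at the dense bodies of body wall muscle and in the pharynx.

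Values are deposited log2 intensities, so a difference of 1 is a doubling of signal. Array medians lay between 5.72 and 5.91 at L3 and between 4.89 and 5.01 on day 8, which looks like separate normalization of the ages, so levels were tested within an age only. Arrays of a group correlated at 0.983 to 0.998 across probe sets. The 3 ash-2 probe sets that can bind several transcripts were far brighter in every RNAi group than in its EV group. The remaining ash-2 probe set fell with RNAi in day 8 WT, by 1.82 ± 0.16 on the log2 scale (limma adjusted p = 2.35e-04). It did not pass in L3 WT (-0.33, adjusted p = 0.343), L3 glp-1 (-0.24, adjusted p = 0.345) or day 8 glp-1 (-0.40, adjusted p = 0.0786). In the text below, ± after a difference is limma's standard error, and ± after a level is an SD over arrays. A probe set passed where its limma p, adjusted over all 22548 probe sets with the Benjamini-Hochberg method, was under 0.05. In whole worms, fewer cells of a type and less RNA per cell cannot be told apart.

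**Figure D1:**
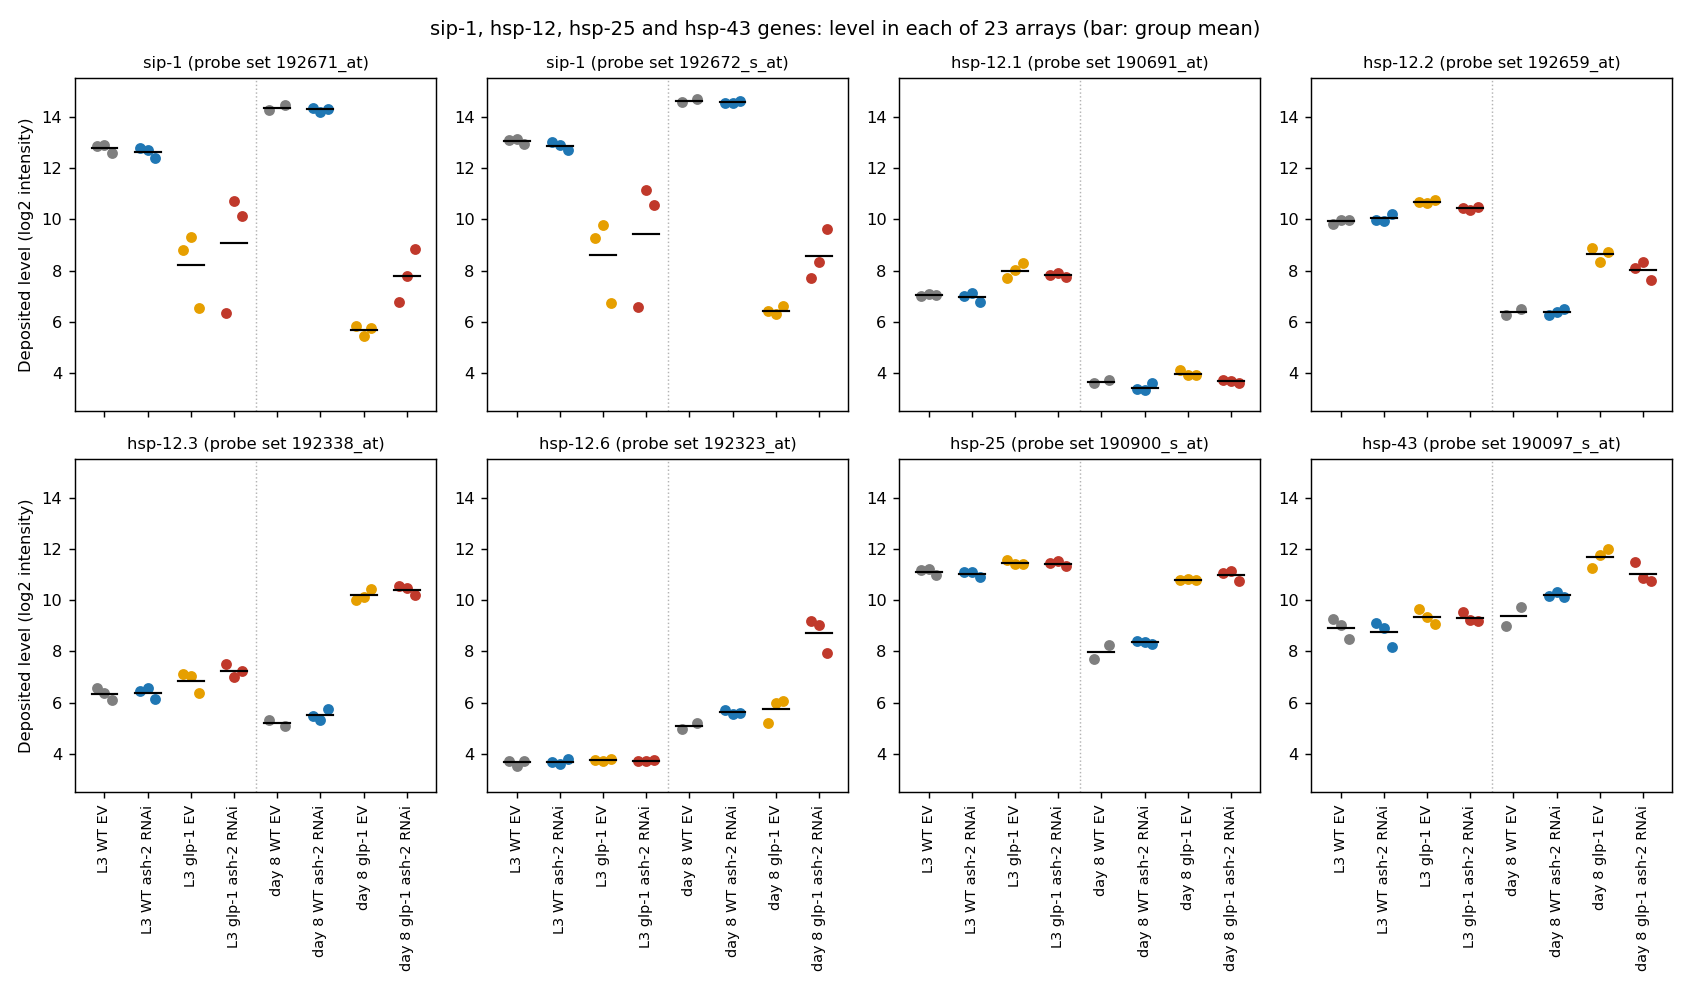
Deposited log2 intensity (vertical axis) of the 8 probe sets in each of the 23 arrays, by group (horizontal axis), with a bar at each group mean and a dotted line between the ages. sip-1 is lower in glp-1 than in WT at both ages, and on day 8 hsp-12.3 and hsp-25 are higher in glp-1 than in WT. hsp-12.6 stands highest in day 8 glp-1 with ash-2 RNAi, at 7.94 to 9.18.

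With RNAi against ash-2, 3 of these genes passed in day 8 glp-1 worms and 0 in the other 3 combinations of age and genotype. In day 8 glp-1, sip-1 and hsp-12.6 rose and hsp-12.2 fell, so that 4 of 8 probe sets passed, against 14.8% of all probe sets. Of these, 3 were higher, against 7.18% of all, and 1 was lower, against 7.63%. In L3 WT 0 of 8 passed with limma (0.328% of all), and 0 of 8 had an unadjusted p under 0.05, against 1543 probe sets in all. Deviations of same-numbered L3 WT arrays correlated at 0.245, 0.142 and 0.487. EV array 1 with RNAi array 2 (0.241) and EV array 2 with RNAi array 1 (0.213) did much the same. A fit of the 2 L3 WT groups with same-numbered pairs as a block, chosen after seeing the data, called 711 probe sets in place of 74. It still called 0 of 8, with 2 of 8 at an unadjusted p under 0.05. Within the pairs sip-1, hsp-25 and hsp-43 each had the lower value with RNAi in 3 of 3. Their paired limma changes lay between -0.19 (hsp-43) and -0.08 (hsp-25, adjusted p = 0.721), and none passed. The shares of all probe sets under the same paired p or lower in 3 of 3 are not given here. Without those shares, the paired counts cannot show whether these genes differ from the rest of the array. In L3 glp-1 0 of 8 passed (0.798% of all) and 1 had an unadjusted p under 0.05, of 2826 in all. In day 8 WT 0 of 8 passed (1.47% of all) and 2 had an unadjusted p under 0.05, of 1817 in all. The median change of the 8 was -0.07 in L3 WT, -0.03 in L3 glp-1, 0.15 in day 8 WT and 0.20 in day 8 glp-1, where the median of all probe sets was 0.01, -0.01, 0.01 and 0.03.

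**Figure D2:**
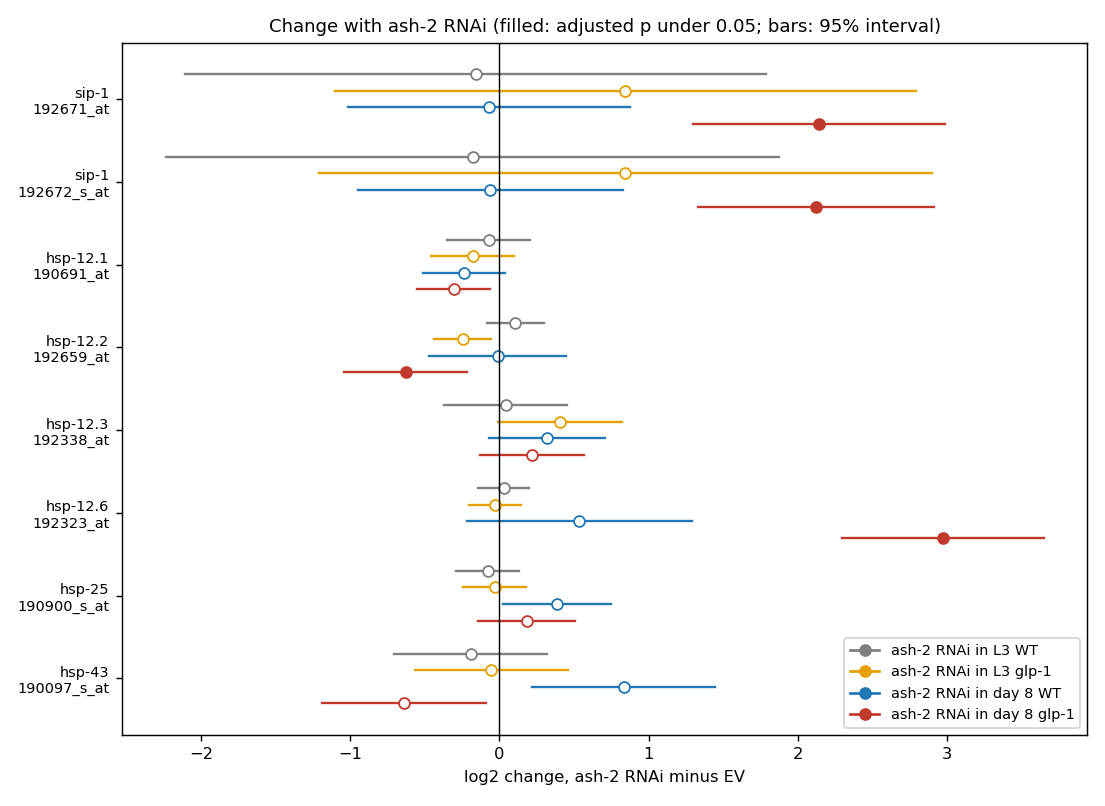
Log2 change with ash-2 RNAi against EV (horizontal axis) for each probe set (vertical axis) in the 4 combinations of age and genotype, with 95% intervals, filled where the adjusted p is under 0.05. The filled points all belong to day 8 glp-1: sip-1 at 2.14 and 2.12, hsp-12.6 at 2.97 and hsp-12.2 at -0.63.

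Most of the 8 probe sets differed between the genotypes at both ages, as did many other probe sets of the array. Under EV at L3, 6 of 8 probe sets passed between glp-1 and WT (55.5% of all), 4 higher in glp-1 (33.4% of all) and 2 lower, both of sip-1 (22.1% of all). With ash-2 RNAi at L3, 6 of 8 passed (48.9% of all), again 4 higher (28.1%) and 2 lower (20.8%). On day 8 under EV 6 of 8 passed (54.9% of all), 4 higher (28.3%) and 2 lower (26.6%). With ash-2 RNAi on day 8, 7 of 8 passed (53.6% of all), 5 higher (28.2%) and 2 lower (25.4%). The comparisons under EV and with ash-2 RNAi share their arrays with the ash-2 comparisons. On day 8 under EV the median difference of the 8 was 1.46, against 0.04 over all probe sets. At L3 it was 0.39, against 0.11.

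**Figure D3:**
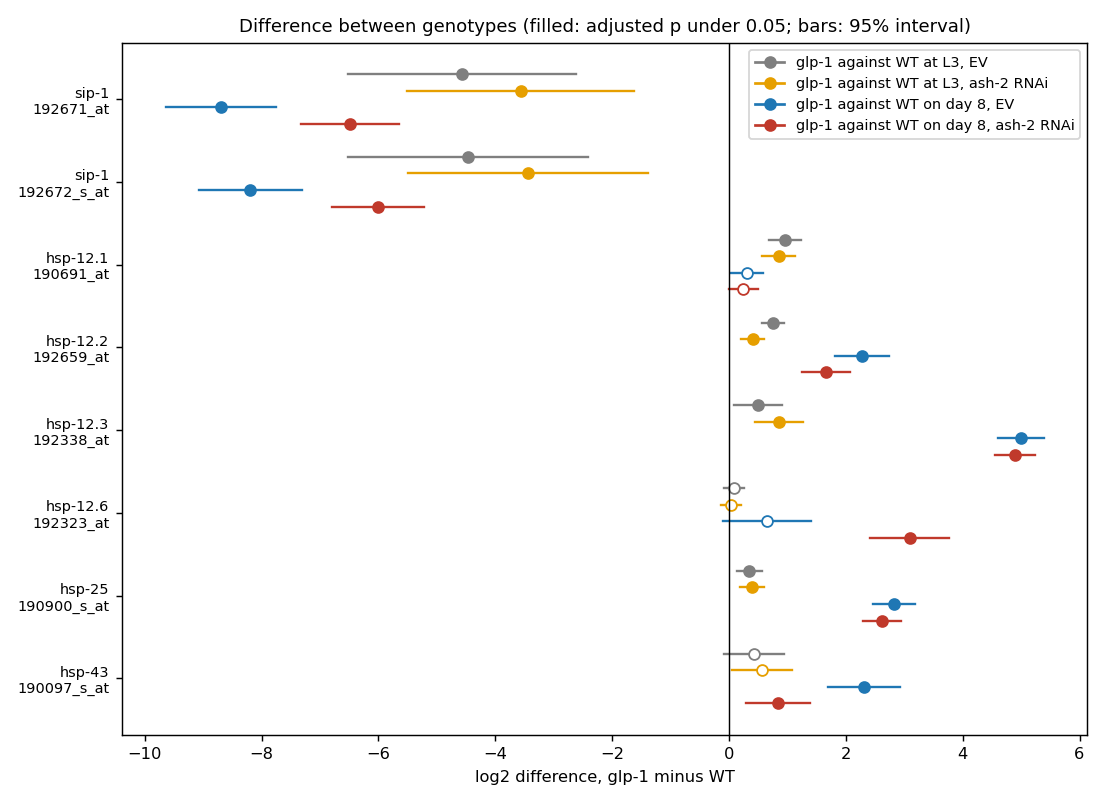
Log2 difference of glp-1 from WT (horizontal axis) for each probe set (vertical axis) at both ages under EV and ash-2 RNAi, with 95% intervals, filled where the adjusted p is under 0.05. sip-1 lies far below 0 in all 4 comparisons, and hsp-12.3, hsp-25, hsp-12.2 and hsp-43 lie above 0 on day 8.

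sip-1, the oocyte and embryo member, had the largest differences of the 8 between the genotypes. In L3 WT it stood at 12.88, 12.89 and 12.59 under EV and at 12.79, 12.71 and 12.38 with ash-2 RNAi. The L3 glp-1 arrays stood at 8.82, 9.3 and 6.52 under EV and at 6.33, 10.71 and 10.14 with ash-2 RNAi. The WT arrays all lay above the glp-1 arrays, and within glp-1 both groups had 1 array far below the other two.

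On day 8 sip-1 was at 14.27 and 14.46 in WT EV and at 14.36, 14.20 and 14.32 in WT with ash-2 RNAi. The shared sip-1 probe set was the brightest of all 22548 in all 5 day 8 WT arrays, and the other sip-1 probe set came next. Brightness also depends on the probes, so this is no ranking of RNA amounts, and whether the spots were saturated was not tested. The day 8 glp-1 level was 5.82, 5.43 and 5.75 under EV and 6.77, 7.80 and 8.85 with ash-2 RNAi. The lowest RNAi array was above the highest EV array.

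Under EV sip-1 was lower in glp-1 than in WT by a log2 difference of -4.57 ± 0.90 at L3 (23.8-fold, adjusted p = 6.62e-04) and of -8.70 ± 0.43 on day 8 (415-fold, adjusted p = 1.04e-08). The shared probe set gave -4.47 ± 0.95 and -8.19 ± 0.40. With ash-2 RNAi the difference was -3.57 ± 0.90 at L3 and -6.49 ± 0.38 on day 8. The L3 value with ash-2 RNAi rested in part on L3 glp-1 ash-2 RNAi array 1 and was -2.20 without it (-2.01 in place of -3.44 for the shared probe set), with both probe sets still passing.

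ash-2 RNAi raised sip-1 in day 8 glp-1 by 2.14 ± 0.38 (95% interval 1.29 to 2.98, 4.40-fold, adjusted p = 0.00379). The shared probe set gave 2.12 ± 0.36 (adjusted p = 0.00278). Leaving out each array in turn gave 1.62 to 2.66, always passing. With all 23 arrays in a single fit neither probe set passed (adjusted p = 0.0551 and 0.0679). In L3 glp-1 the change was 0.84 with an interval from -1.10 to 2.79, and no direction could be read there. It was -0.0020 without L3 glp-1 EV array 3 and 2.21 without L3 glp-1 ash-2 RNAi array 1 (adjusted p = 0.0782).

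Oocyte marker genes were high and low in the same genotypes as sip-1, and within glp-1 mostly in the same arrays. The mean of 10 such genes (oma-1, oma-2, rme-2, puf-5, cbd-1, egg-1, egg-3, perm-2, perm-4 and chs-1) was 9.34 to 10.06 in L3 WT and 11.77 to 12.18 in day 8 WT. In L3 glp-1 it was 7.47, 7.77 and 6.55 under EV and 6.87, 8.34 and 7.99 with ash-2 RNAi. The 2 arrays with the lowest oocyte mean among these were those with the lowest sip-1. In day 8 glp-1 it was 6.68, 6.68 and 6.73 under EV and 6.96, 7.02 and 7.39 with ash-2 RNAi, the same order of the RNAi arrays as for sip-1. The orders differed in L3 WT EV, in day 8 glp-1 EV and in both day 8 WT groups. In day 8 WT EV the oocyte mean was 12.18 and 11.77 where sip-1 was 14.27 and 14.46. With ash-2 RNAi in day 8 glp-1, 2 of the 10 oocyte genes rose, oma-2, an oocyte maturation factor, by 1.76 ± 0.12 and egg-3, which acts in the egg's change at fertilization, by 0.74 ± 0.11. Of 10 germ cell genes 3 rose, gld-1 by 1.10 ± 0.16, glh-1 by 0.88 ± 0.14 and syp-1 by 0.58 ± 0.13, and 0 fell. The median change of the list was -0.05, with 6 of 10 genes below 0, while its mean level was 5.36 to 5.50 under EV and 5.60 to 5.69 with RNAi. The part of these cells in the rise of sip-1 was not tested.

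**Figure D4:**
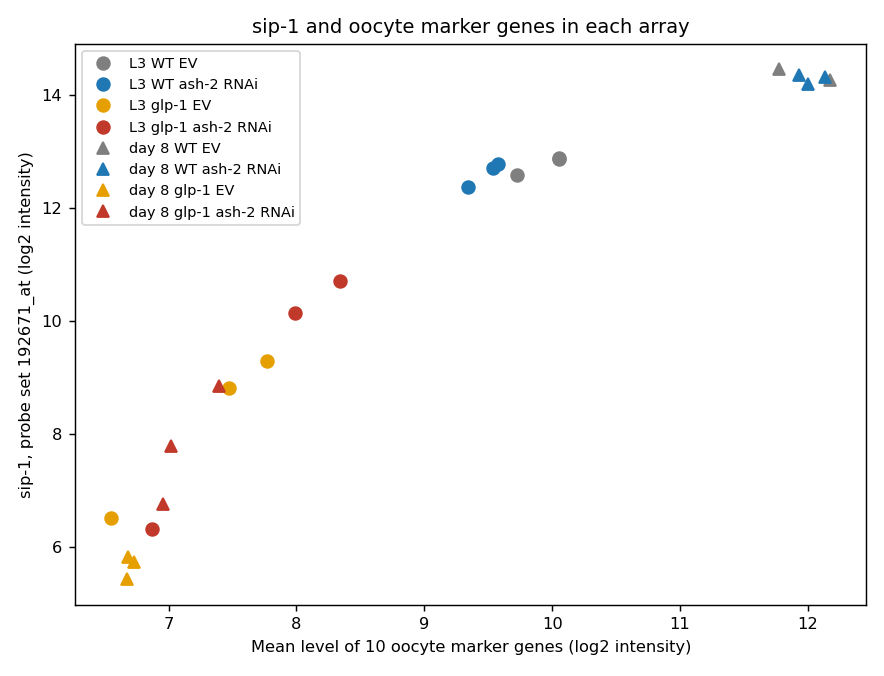
Level of sip-1 (vertical axis, log2 intensity) against the mean level of 10 oocyte marker genes (horizontal axis, log2 intensity), 1 point per array, with colours for genotype and RNAi and shapes for age. The 5 day 8 WT arrays lie at the top right, and the 3 day 8 glp-1 EV arrays, with sip-1 at 5.43 to 5.82, at the bottom left.

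hsp-12.6, the DAF-16 target, was dim in all 12 L3 arrays, between 3.54 and 3.78, with no comparison passing at that age, except glp-1 against WT under EV once arrays were centred on their medians (0.20, adjusted p = 0.0368). On day 8 it was 4.96 and 5.21 in WT EV and 5.71, 5.54 and 5.60 in WT with ash-2 RNAi. In day 8 glp-1 it was 5.19, 5.98 and 6.05 under EV (5.74 ± 0.48, SD, n = 3) and 9.18, 9.01 and 7.94 with ash-2 RNAi (8.71 ± 0.67, SD, n = 3). Every array of the last group lay above every other array of the series. The array lowest for hsp-12.6 in it, number 3, was the highest for sip-1.

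The rise of hsp-12.6 with ash-2 RNAi in day 8 glp-1 was 2.97 ± 0.31 (95% interval 2.30 to 3.65, 7.84-fold, adjusted p = 1.2e-04). It passed with each array left out, between 2.69 and 3.36. In day 8 WT the change was 0.54 ± 0.34, with groups that did not overlap and an adjusted p of 0.962. Genotype alone gave 0.66 ± 0.34 under EV on day 8 (adjusted p = 0.133). That difference passed without day 8 glp-1 EV array 1 (0.93, adjusted p = 0.0332) and without day 8 glp-1 ash-2 RNAi array 3 (0.66, adjusted p = 0.0308). With ash-2 RNAi, hsp-12.6 was higher in glp-1 than in WT by 3.09 ± 0.31 (8.52-fold, adjusted p = 3.49e-06).

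Whether the genotypes answered ash-2 RNAi differently was tested as the WT change less the glp-1 change. On day 8, 2 of 8 probe sets passed (4% of all), both lower (1.67% of all). hsp-12.6 had -2.44 ± 0.46 (95% interval -3.45 to -1.42, adjusted p = 0.0156), which no longer passed without day 8 WT EV array 2 (-2.31, adjusted p = 0.0683). The shared sip-1 probe set had -2.18 ± 0.54 (adjusted p = 0.0499) and the other had -2.21 ± 0.57 (adjusted p = 0.0597). Both were the brightest of the array in day 8 WT, where saturation was not tested, so a rise there might not have shown. The shared probe set passed only without day 8 glp-1 ash-2 RNAi array 1 or 3, and was lost with any of the other 9 left out and with all 23 arrays in a single fit (adjusted p = 0.309). The other passed without array 1 (-2.73, adjusted p = 0.00441) and without array 3 (-1.69, adjusted p = 0.0298) of that group. At L3, 0 of 8 passed with limma (0% of all), and 1 of 8 had an unadjusted p under 0.05, hsp-12.2 at 0.35 ± 0.13, of 1859 in all.

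The change on day 8 minus the change at L3 compares the answer to ash-2 RNAi between ages. In glp-1, 1 of 8 passed (9.73% of all), higher (4.18% of all). This was hsp-12.6, at 3.00 ± 0.33 (95% interval 2.32 to 3.68, adjusted p = 4.01e-06). Its L3 arrays were all dim (3.54 to 3.78), so a missing L3 response cannot be told from a missing signal. Its SD was 0.03 and 0.04 in the L3 glp-1 groups and 0.48 and 0.67 in those of day 8. The fit pools the spread of all 23 arrays, so this interval may be too narrow. For sip-1 the day 8 change minus the L3 change was 1.29 ± 1.11, with an interval from -1.03 to 3.62. In WT 0 of 8 passed with limma (1.55% of all), and 2 had an unadjusted p under 0.05, hsp-25 at 0.46 ± 0.19 and hsp-43 at 1.03 ± 0.39, of 1826 in all.

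The other hsp-12 genes differed from hsp-12.6 and from each other. hsp-12.3 and hsp-12.6 are direct neighbours on chromosome IV, with 0 genes between them in the gene table of assembly WBcel235. hsp-12.3 was 6.57, 6.37 and 6.09 in L3 WT EV, 6.44, 6.55 and 6.16 in L3 WT with ash-2 RNAi, 7.10, 7.03 and 6.38 in L3 glp-1 EV and 7.50, 7.0 and 7.23 in L3 glp-1 with ash-2 RNAi. The groups were close, and WT EV and glp-1 EV overlapped.

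On day 8 hsp-12.3 was 5.33 and 5.07 in WT EV, 5.48, 5.30 and 5.76 in WT with ash-2 RNAi, 10.02, 10.11 and 10.44 in glp-1 EV and 10.53, 10.48 and 10.21 in glp-1 with ash-2 RNAi. All glp-1 arrays lay far above all WT arrays. The genotype difference was 4.99 ± 0.18 under EV (95% interval 4.61 to 5.38, 31.9-fold, adjusted p = 1.06e-09) and 4.89 ± 0.16 with ash-2 RNAi (29.7-fold, adjusted p = 4.60e-10). At L3 it was 0.49 ± 0.19 under EV (adjusted p = 0.043) and 0.86 ± 0.19 with ash-2 RNAi (adjusted p = 0.00204). The L3 EV difference no longer passed without WT EV array 2 or 3, glp-1 EV array 1 or 2, WT ash-2 RNAi array 1 or glp-1 ash-2 RNAi array 3, and lay between 0.36 and 0.72. ash-2 RNAi gave 0.22 ± 0.16 in day 8 glp-1 (95% interval -0.13 to 0.57, adjusted p = 0.419), where its neighbour hsp-12.6 rose. The difference between these 2 genes was not tested.

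hsp-12.2 was 9.82, 9.98 and 9.98 in L3 WT EV, 9.96, 9.95 and 10.20 in L3 WT with ash-2 RNAi, 10.68, 10.63 and 10.74 in L3 glp-1 EV and 10.45, 10.36 and 10.50 in L3 glp-1 with ash-2 RNAi. Both glp-1 groups were above both WT groups, and the glp-1 EV arrays were all above the glp-1 RNAi arrays. On day 8 it was 6.27 and 6.50 in WT EV, 6.25, 6.37 and 6.49 in WT with ash-2 RNAi, 8.88, 8.35 and 8.74 in glp-1 EV and 8.08, 8.34 and 7.65 in glp-1 with ash-2 RNAi. The order of the groups was the same as at L3 for the glp-1 groups, while the WT groups overlapped at both ages.

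hsp-12.2 was higher in glp-1 than in WT under EV by 0.75 ± 0.09 at L3 (adjusted p = 9.14e-06) and by 2.27 ± 0.21 on day 8 (4.83-fold, adjusted p = 1.76e-06). With ash-2 RNAi the differences were 0.40 ± 0.09 and 1.65 ± 0.19. With ash-2 RNAi it fell in day 8 glp-1 by 0.63 ± 0.19 (95% interval -1.04 to -0.22, adjusted p = 0.0441). This call was narrow: it was lost without any 1 of 9 arrays, kept only without glp-1 EV array 2 or glp-1 ash-2 RNAi array 2, and ranged from -0.79 to -0.44 with adjusted p up to 0.142. In L3 glp-1 the change was -0.25 ± 0.09 (adjusted p = 0.261), with groups that did not overlap.

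hsp-12.1 stood at 7.01, 7.09 and 7.03 in L3 WT EV, 7.01, 7.11 and 6.79 in L3 WT with ash-2 RNAi, 7.70, 8.02 and 8.28 in L3 glp-1 EV and 7.81, 7.92 and 7.73 in L3 glp-1 with ash-2 RNAi. It was higher in glp-1 at L3, by 0.95 ± 0.13 under EV (1.94-fold, adjusted p = 2.9e-05) and by 0.85 ± 0.13 with ash-2 RNAi. On day 8 it was dim, from 3.33 to 4.13 over all 11 arrays, and dropped out when the dimmest 40% of probe sets were left out. The day 8 differences of 0.31 ± 0.12 under EV (adjusted p = 0.0529) and 0.24 ± 0.11 with ash-2 RNAi (adjusted p = 0.0893) did not pass. Both passed without day 8 WT ash-2 RNAi array 3 (0.31, adjusted p = 0.0457, and 0.33, adjusted p = 0.0393). In day 8 glp-1 it was 4.13, 3.91 and 3.90 under EV and 3.73, 3.70 and 3.59 with ash-2 RNAi, groups apart with a change of -0.31 ± 0.11 (adjusted p = 0.0938).

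hsp-25 and hsp-43, the longer members, were higher in glp-1 than in WT on day 8. At L3 hsp-25 lay between 10.89 and 11.58 over all 12 arrays and was higher in glp-1 by 0.35 ± 0.10 under EV (adjusted p = 0.00760) and 0.40 ± 0.10 with ash-2 RNAi (adjusted p = 0.00404). On day 8 it was 7.72 and 8.23 in WT EV, 8.40, 8.38 and 8.30 in WT with ash-2 RNAi, 10.79, 10.81 and 10.79 in glp-1 EV and 11.07, 11.15 and 10.73 in glp-1 with ash-2 RNAi. All glp-1 arrays were above all WT arrays, and the glp-1 groups overlapped. The genotype difference was 2.82 ± 0.16 under EV (7.08-fold, adjusted p = 3.73e-08) and 2.62 ± 0.15 with ash-2 RNAi (6.15-fold, adjusted p = 2.61e-08). In day 8 WT the RNAi arrays were above the EV arrays, with a change of 0.38 ± 0.16 (adjusted p = 0.542).

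hsp-43 ranged from 8.17 to 9.64 over the 12 L3 arrays and passed in no L3 comparison. Its L3 difference between genotypes was 0.42 ± 0.24 under EV (adjusted p = 0.151) and 0.56 ± 0.24 with ash-2 RNAi (adjusted p = 0.0665). The second passed without WT EV array 3 (0.56, adjusted p = 0.0458) and without WT ash-2 RNAi array 1 (0.75, adjusted p = 0.0271).

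On day 8 hsp-43 was 8.99 and 9.73 in WT EV, 10.17, 10.30 and 10.11 in WT with ash-2 RNAi, 11.25, 11.76 and 11.99 in glp-1 EV and 11.48, 10.87 and 10.73 in glp-1 with ash-2 RNAi. In WT the RNAi arrays all lay above the EV arrays, and in glp-1 the groups overlapped, with the lower mean under RNAi. Neither change passed: it was 0.83 ± 0.28 in WT (95% interval 0.22 to 1.45, adjusted p = 0.294) and -0.64 ± 0.25 in glp-1 (interval -1.19 to -0.09, adjusted p = 0.117). Without day 8 glp-1 ash-2 RNAi array 1 the glp-1 change passed (-0.87, adjusted p = 0.0427). The difference between the genotypes in this change, 1.47 ± 0.37, missed the threshold (adjusted p = 0.055). It passed without day 8 WT EV array 2 (1.84, adjusted p = 0.0466), without glp-1 EV array 1 (1.68, adjusted p = 0.0315) and without glp-1 ash-2 RNAi array 1 (1.70, adjusted p = 0.0269). Under EV hsp-43 was higher in glp-1 by 2.31 ± 0.28 (4.95-fold, adjusted p = 1.93e-05). With ash-2 RNAi it was higher by 0.83 ± 0.25 (adjusted p = 0.0141), which did not pass without glp-1 ash-2 RNAi array 1 (0.61, adjusted p = 0.0609).

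Over the 4 comparisons of genotype, groups did not overlap for 5 of 8 probe sets at L3 under EV (61.1% of all), 7 of 8 at L3 with ash-2 RNAi (57.8%), 7 of 8 on day 8 under EV (69.2%) and 7 of 8 on day 8 with ash-2 RNAi (62.8%). For ash-2 RNAi they did not overlap at L3 for 0 of 8 with WT (15% of all) and 1 of 8 with glp-1 (14.2%), and on day 8 for 4 of 8 with WT (27.4%) and 5 of 8 with glp-1 (29.1%).

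Marker genes of body tissues moved with the genotype as well. Of all probe sets, 28.3% were higher and 26.6% lower in glp-1 on day 8 under EV, and 33.4% and 22.1% at L3. On day 8 under EV all 10 body wall muscle genes were higher in glp-1, with a median difference of 2.18, and their mean per array was 7.70 to 7.72 in WT and 9.77 to 10.27 in glp-1. All 10 intestine genes were higher, with a median of 2.79, and so were 8 of 10 neuron genes, with 1.53. Of 8 epidermis genes 4 were higher and 1 lower, with a median of 0.56, and of 9 sperm genes 3 were higher, with 0.19. All 10 germ cell genes were lower, with a median of -4.88. Of the oocyte genes 8 were lower and 2, perm-2 and perm-4, were higher, with a median of -6.43. hsp-25 (2.82), hsp-43 (2.31) and hsp-12.2 (2.27) lay near the muscle and intestine medians and hsp-12.3 (4.99) above them. hsp-12.6 and hsp-12.1 lay below both medians and did not pass, and sip-1 was far lower in glp-1 than in WT.

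At L3 under EV the medians were 0.35 for muscle (9 of 10 higher), 0.43 for intestine (7 of 10), 0.66 for neurons (9 of 10) and 0.47 for epidermis (4 of 8). They were -3.40 for germ cells (10 of 10 lower), -3.05 for oocytes (8 of 10 lower) and -1.11 for sperm (9 of 9 lower). Apart from sperm, each was smaller in size than on day 8. The part of tissue proportions in the differences between genotypes was not tested. With ash-2 RNAi in day 8 glp-1 the muscle mean was 10.02 to 10.04 and 1 of 10 genes passed, pat-10, which fell by 0.44 ± 0.12. There 6 of 10 intestine genes fell, with a median of -0.59, as did 2 of 10 neuron genes and 2 of 9 sperm genes. Of 8 epidermis genes 2 rose and 1 fell, with a median of 0.14. hsp-12.2 fell in day 8 glp-1 as well, a narrow call. In day 8 WT the muscle mean was 8.07 to 8.25 with ash-2 RNAi, and 2 of 10 muscle genes rose, while 1 of 10 intestine genes fell. hsp-25 and hsp-43 had higher values with RNAi there too, but neither change passed. The part of tissues in these changes was not tested.

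Between the ages, places within the array could be described but not tested. The percentile of hsp-12.6 among all probe sets was 4.70 to 5.56 in the 4 L3 groups, and on day 8 it was 52.3 in WT EV, 58.1 in WT with ash-2 RNAi, 58.5 in glp-1 EV and 84.7 in glp-1 with ash-2 RNAi. hsp-12.1 took the opposite course, from between 62.9 and 76.0 at L3 to between 4.28 and 23.6 on day 8. hsp-12.2 stood lower on day 8 in each group, at 64.1, 64.2, 84.1 and 79.4 in the order just used, against 91.6 to 94.5 at L3. hsp-12.3 stayed near the middle in WT (55.4 and 55.8 at L3, 53.5 and 57.1 on day 8) and was higher on day 8 in glp-1 (62.8 and 67.1 at L3, 93.6 and 94.8 on day 8).

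hsp-25 stood lower on day 8 in WT (from 96.0 and 95.8 to 76.4 and 79.7). In glp-1 it moved little, at 96.0 and 96.5 against 96.7 and 96.6, though the ages did not overlap under EV. hsp-43 stood at 82.5 to 87.9 at L3 and at 88.0, 93.9, 97.8 and 96.6 on day 8. sip-1 went from 98.7 and 98.5 to the top in WT, and from 76.9 and 81.2 to 58.2 and 77.3 in glp-1, with overlapping arrays. Ranges of the percentile did not overlap between ages for 6 of 8 in WT EV (77.7% of all), 7 of 8 in WT with ash-2 RNAi (74.8%), 6 of 8 in glp-1 EV (63%) and 5 of 8 in glp-1 with ash-2 RNAi (64.1%), so such shifts were common on these arrays.

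**Figure D5:**
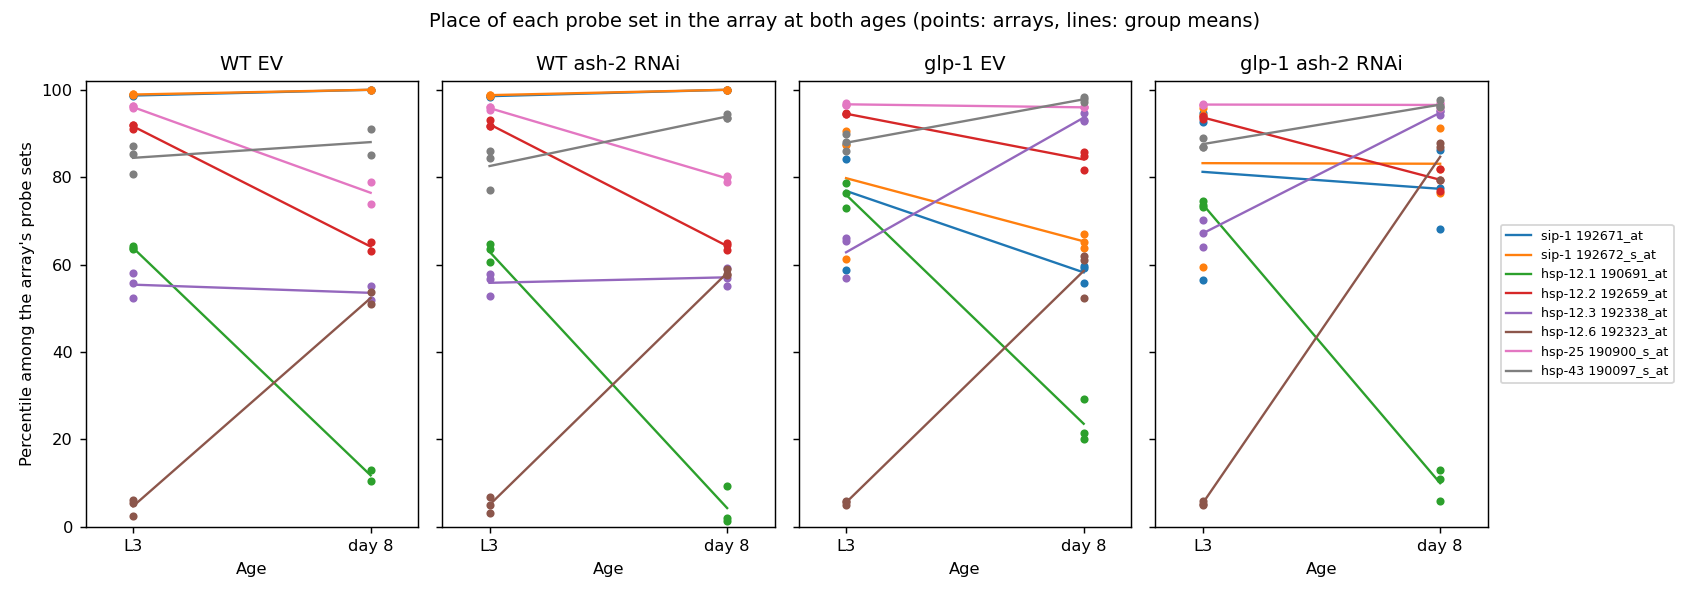
Percentile of each probe set among all probe sets of an array (vertical axis) at L3 and on day 8 (horizontal axis), in a panel per genotype and RNAi, with points for arrays and lines between group means. hsp-12.6 starts between 4.70 and 5.56 in all 4 panels and stands at 84.7 on day 8 in glp-1 with ash-2 RNAi, while hsp-12.1 stands lower on day 8 in all 4.

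The genes did not share a single pattern. As a measure of likeness, Pearson's r was taken over the 23 arrays after removing each probe set's mean within its age. It was 0.999 between the sip-1 probe sets, 0.984 between hsp-12.3 and hsp-25, -0.930 between sip-1 and hsp-12.2 and 0.01 between hsp-12.1 and hsp-12.6. The arrays share their normalization and fall into 8 groups, so these values describe the groups more than 23 separate points. Most like sip-1 (its shared probe set) was cpg-2, which codes for a chondroitin proteoglycan of the eggshell, in 2 probe sets with r of 0.997 and 0.996. For hsp-12.1 they were madd-2 (0.943) and nck-1 (0.931), and for hsp-12.2 tyr-4 and F36G3.1 (both 0.983). hsp-12.3 was most like F32B5.6 (0.994) and cest-35.1 (0.991), and hsp-12.6 most like C05B5.17 (0.975) and cyp-33C1 (0.973), a cytochrome P450 gene. For hsp-25 they were F45E1.4 (0.994) and atf-4 (0.993), and for hsp-43 nex-3 (0.952), an annexin gene, and col-181 (0.945), a collagen gene.

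In the rest of the alpha-crystallin family, 2 of the 4 hsp-16 genes measured rose with ash-2 RNAi. Of 11 listed genes 7 were measured, and hsp-16.2 and hsp-16.41, heat-inducible members, passed upward in all 4 ash-2 comparisons. Their changes were 1.73 ± 0.12 and 2.04 ± 0.16 in L3 WT, 0.98 ± 0.12 and 1.27 ± 0.16 in L3 glp-1, 2.41 ± 0.20 and 2.46 ± 0.34 in day 8 WT and 2.21 ± 0.18 and 3.14 ± 0.31 in day 8 glp-1. The other hsp-16 genes, hsp-16.20 and hsp-16.21, passed in none of the 4, with changes of -0.13 to -0.09 and of -0.01 to 0.12. Both were dim in every group, with group means from 3.61 to 4.11, so a missing response cannot be told from a missing signal. In day 8 glp-1, hsp-17 fell by 0.82 ± 0.12 (adjusted p = 0.00111) and ZK1128.7 by 0.50 ± 0.14 (adjusted p = 0.034), while in the other 3 comparisons no further listed gene passed. Between genotypes 5 of 7 were higher in glp-1 and 0 lower in each of the 4 comparisons. Of all probe sets 28.1% to 33.4% were higher and 20.8% to 26.6% lower. Among the 7, hsp-17 was the furthest from WT on day 8 under EV, at 3.71 ± 0.13. For hsp-17 the WT change less the glp-1 change on day 8 was 1.41 ± 0.18 (adjusted p = 0.00217).

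Genes that act upstream of small heat shock genes did not pass with ash-2 RNAi. Of 17 regulators around HSF-1, the heat shock factor, and DAF-16, 0 passed in any of the 4 ash-2 comparisons with limma. Of all probe sets 0.328% passed in L3 WT, 0.798% in L3 glp-1, 1.47% in day 8 WT and 14.8% in day 8 glp-1. In the first 3 a count of 0 therefore says little. At an unadjusted p under 0.05 there were 0 regulators in L3 WT and 2 in L3 glp-1 (1543 and 2826 of all probe sets). On day 8 there were 1 in WT and 2 in glp-1 (1817 and 6311 of all). In day 8 glp-1, hsf-1 had a change of 0.11 ± 0.27 and daf-16 of 0.27 ± 0.17. Between genotypes under EV, 3 were higher and 7 lower in glp-1 at L3, and 5 higher and 9 lower on day 8. Of all probe sets 33.4% were higher and 22.1% lower at L3, and 28.3% and 26.6% on day 8. hcf-1, which holds DAF-16 back, was lower on day 8 by a difference of -4.59 ± 0.12.

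Of 16 larger chaperone genes 13 were measured. With ash-2 RNAi 0 passed with limma at L3 in either genotype (0 in WT and 2 in glp-1 at an unadjusted p under 0.05), 1 rose in day 8 WT, hsp-70 by 2.12 ± 0.31 (adjusted p = 0.00660), and 1 fell in day 8 glp-1, the co-chaperone dnj-13 by 1.07 ± 0.17 (adjusted p = 0.00158). Between genotypes under EV, 4 were higher and 7 lower in glp-1 at L3, and 3 higher and 6 lower on day 8, where hsp-70 had 3.76 ± 0.31 and hsp-75 had -2.43 ± 0.22. The shares of all probe sets are those given for the regulators.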

How the data were processed

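Whole-worm RNA was measured on 23 Affymetrix arrays. The deposited values are log2 intensities from RMA (named in the submitters' processing notes, per the labels, with no version), and no genome build is given in the sources used here. Of 22548 probe sets, 20766 name 1 gene, 887 several and 895 none in the platform annotation; 20701 matched a current symbol in the RefSeq gene table of assembly WBcel235. Cells were empty 6 times, in 5 probe sets, and were left out. Names ending in _s_at or _x_at (6711 probe sets) mark probe sets that can bind several transcripts. No sequence is shown.

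Groups came from the sample labels. From the deposited log2 values, limma 3.58.1 (R 4.3.3; lmFit and eBayes, two-sided) was fitted to the 12 L3 and the 11 day 8 arrays apart, and to all 23 for RNAi by age, giving 12 comparisons. Adjusted p-values use the Benjamini-Hochberg method across every probe set, with a threshold of 0.05, and intervals are 95%. The code was tested on simulated data with 200 changed probe sets. Signal over background is not known for these values. Precision is limited by how many arrays there are.

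The genes and lists were chosen with earlier results of these data known. Named are all probe sets of the 7 genes, the 2 probe sets most like each, passing genes of the alpha-crystallin list, and the 2 with the smallest p of other lists where any passed. One gene that this rule names is not reported here. hsf-1 and daf-16, syp-1 and further chaperone values were named after their values were seen. For a listed gene with several probe sets, the brightest on average was used.

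The deviations of same-numbered arrays correlated above 0.1 in 9 of 18 pairs at L3 and 3 of 15 on day 8. They did so in every pair only between the EV and RNAi groups of L3 WT (0.245, 0.142 and 0.487), which were also fitted as pairs. Numbers 1 and 2 were not told apart there: EV array 1 with RNAi array 2 had 0.241, and EV array 2 with RNAi array 1 had 0.213. The labels do not say what a number marks. Alternatives were median centring, quantile normalization, leaving out the dimmest 40% of probe sets, trend and robust settings, other sets of arrays in the fit, the replicate number as a block and leaving out each array.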

Additional observations from a re-analysis of the deposited data

Results flagged for a closer look

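The difference between genotypes in the change with ash-2 RNAi passed its test on day 8 for hsp-12.6 (WT minus glp-1 -2.44, adjusted p = 0.0156) and for the shared sip-1 probe set (-2.18, adjusted p = 0.0499), both from limma. For hsp-12.6 the change with ash-2 RNAi in glp-1 also differed between the ages (day 8 minus L3 3.00, limma adjusted p = 4.01e-06). It was dim in every L3 array, so a missing L3 response cannot be told from a missing signal. Groups of 2 or 3 arrays are too small for a test of single arrays that stand apart.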

How the results depend on the processing

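No change of the 8 probe sets reversed its direction while called. With all 23 arrays in a single fit, ash-2 RNAi in day 8 glp-1 gave 2 passing probe sets in place of 4. The test of genotype difference in that change on day 8 gave 1 in place of 2 after quantile normalization, 4 without the dimmest 40% of probe sets, and 1 to 4 with an array left out. The other counts over the 8 stayed within 1.5 times, and the cause of these moves was not tested. Among single genes, the fall of hsp-12.2 in day 8 glp-1 was lost after quantile normalization (adjusted p = 0.0506) and with only the 2 groups fitted (0.116), and hsp-12.3 at L3 under EV with only the 2 groups (0.0513). With trend and robust settings, hsp-12.1 passed on day 8 between genotypes (0.0234 under EV, 0.0464 with ash-2 RNAi) and for ash-2 RNAi in glp-1 (0.0471). The shared sip-1 probe set then lost its genotype difference (0.0857) and hsp-43 gained one (0.0450).

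The replicate number as a block gave 3 in place of 4 in day 8 glp-1 with ash-2 RNAi, where hsp-12.2 was lost (adjusted p = 0.0781). It gave 7 in place of 6 for glp-1 against WT at L3 under both EV and ash-2 RNAi, with hsp-43 gained, and changed no other call. For ash-2 RNAi in L3 WT, same-numbered deviations correlated above 0.1 in every pair. There the 2 groups alone with the block gave 0 of 8 and 711 of all probe sets in place of 74. Of 23 arrays, 10 correlated best with an array of their own number.

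Over all probe sets, ash-2 RNAi in L3 WT gave 74 calls, 34 with all arrays fitted, 168 with only the 2 groups compared, and 39 to 120 with an array left out. L3 glp-1 gave 180, then 110, 25, and 47 to 307. Day 8 WT gave 331, then 801 with all arrays, 215 with the block, and 128 to 413 with an array left out. Day 8 glp-1 gave 3339, then 5296 with all arrays and 1980 with the 2 groups. The genotype difference on day 8 gave 902, then 2465 with all arrays and 385 to 960 with an array left out. At L3 it gave 0, and up to 62 with an array left out. RNAi by age in WT gave 349, and 197 to 588.

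Median centring moved the split of calls in L3 glp-1 with ash-2 RNAi from 113 higher and 67 lower to 89 and 123. For glp-1 against WT at L3 under EV it moved from 7538 and 4983 to 10728 and 4493, with the median of all probe sets up by 0.10. For RNAi by age in glp-1 it moved from 942 and 1252 to 1463 and 1059. Leaving out a day 8 WT EV array leaves 1 there, assumed to vary like the other groups.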
